A study of Mus musculus with 6 samples.

Results

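The p53 gene and its regulators and targets, 10 genes in all, were followed in C0321 mouse mammary tumors. They were Trp53, which codes for p53, and Cdkn1a, Mdm2, Mdm4, Ccng1, Sesn1, Zmat3, Phlda3, Cdkn2a and Trp53inp1. Members were chosen by name: every row of the deposited count table whose gene symbol equalled a member was taken, and the transcript rows were summed per symbol. All 10 had rows, 10 of the 13730 genes and 19 of the 20648 transcript rows in the table, and all 10 passed the low-count filter. Levels are given in CPM, the counts of a gene brought to a common library total, so that tumors of different depth can be compared.

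The series measured polyadenylated RNA of 6 tumors, 3 of control mice and 3 of mice dosed with SS. C0321 is a mouse triple-negative breast cancer line, one clone of mesenchymal, claudin-low type, derived from a Lfng-/- mouse (a conditional knockout of Lunatic Fringe) on the FVB background. The driver of the deletion and the state of the line's Trp53 alleles are not given in the sources used here. In both groups the cells were injected with Matrigel into the mammary fat pad of immunocompetent female FVB mice of 6 to 10 weeks. SS was given by mouth at 60 mg/kg daily for 14 days once a tumor could be felt. Control mice received saline in the series text and vehicle in the paper. SS stands for sulindac sulfide in the paper, while the sample labels read Sulindac Sulfate. The tumors are bulk tissue, so fewer cells of a type and less RNA per cell cannot be told apart.

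p53 is a transcription factor that is held at a low level by Mdm2, the ubiquitin ligase that marks it for degradation, and by Mdm4, which binds and silences it. DNA damage and other stress release p53, and oncogenic growth signals do so through p19Arf, a product of Cdkn2a that binds Mdm2. Active p53 then raises genes that stop the cell cycle, repair DNA or kill the cell, and it raises Mdm2, which closes the loop.

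Total counts per tumor lay between 12314368 and 24441522 in the control group and between 8468914 and 13696665 in the SS group, and 3 counts corresponded to 0.123 to 0.354 CPM. Triple-negative tumors lack the estrogen, progesterone and HER2 receptors at the protein level. Esr1 lay between 4.48 and 6.40 CPM, Pgr between 0 and 3.82 CPM and Erbb2 between 17.1 and 22.4 CPM. Vim, the mesenchymal intermediate filament, lay between 5875 and 8620 CPM, and the epithelial marker Epcam between 0.041 and 2.98 CPM. Lfng, the gene deleted in the source of the line, lay between 4.65 and 6.40 CPM, in tissue that also holds cells of the host. Muscle RNA varied most among the marker lists, with 5 summed muscle markers between 881 and 9326 CPM in control tumors and between 283 and 17889 CPM in SS tumors. Adipocyte markers were highest in control tumor 1, at 91.8 CPM summed over the 7 of 8 with a row, against 6.81 to 55.7 CPM in the other 5 tumors, where Plin1 was at 0 in control tumor 3 and SS tumor 3.

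Per length of transcript, Cdkn2a stood highest among the members and Cdkn1a and Zmat3 lowest. To compare genes, CPM was divided by the length in kilobases of the longest transcript of each gene, and each level was placed among the 10789 tested genes with a length. Cdkn2a had a mean of 45.5 CPM per kb over the 6 tumors, which placed it on average at percentile 89.8. Phlda3, which codes for a small pleckstrin-homology protein that restrains Akt, followed at 16.9 CPM per kb and percentile 75.8. Both were separated from the next gene in all 6 tumors.

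**Figure D1:**
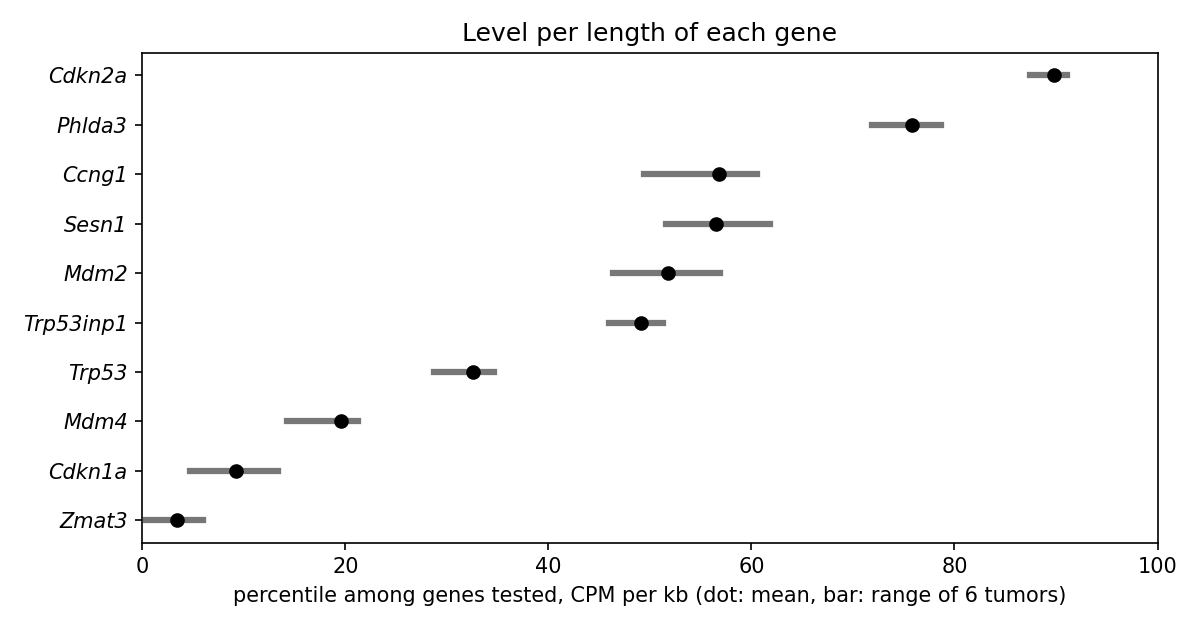
Percentile of each gene's CPM per kb among the 10789 tested genes with a length. Dots are means and bars the range over the 6 tumors. Cdkn2a sits at 89.8 and Phlda3 at 75.8 on average, while Cdkn1a sits at 9.24 and Zmat3 at 3.39.

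Ccng1 at 6.54, Sesn1 at 6.48, Mdm2 at 5.16 and Trp53inp1 at 4.49 CPM per kb formed a middle group whose neighbours had overlapping ranges. Trp53 itself lay below them at 1.97 CPM per kb and percentile 32.6. Mdm4 came next at 0.927 CPM per kb. Cdkn1a, the gene of the cyclin-dependent kinase inhibitor p21 and the classical p53 target, lay at 0.422 CPM per kb and percentile 9.24. Zmat3, which codes for an RNA-binding zinc finger protein, had the lowest level of the 10, at 0.166 CPM per kb and percentile 3.39, and its range overlapped that of Cdkn1a. By this measure Trp53inp1 was separated from Trp53, Trp53 from Mdm4 and Mdm4 from Cdkn1a in all 6 tumors. The place of Mdm4 depends on the length taken, 7105 bases for its longest rows. Its transcript NM_001302801, with 19.6% to 72.8% of the gene's counts, has 1914 bases. Dividing each row by its own length would raise Mdm4, and the order against Trp53 was not tested that way.

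These levels carry a limit of the table. Some genes that nearly every cell transcribes had few CPM in it. B2m lay between 1.66 and 3.85 CPM and Rps29 between 1.26 and 3.99 CPM, while Actb lay between 70998 and 79625 CPM. Per length B2m was at percentile 36.1 and Rps29 at 57.8 on average, above Trp53, Cdkn1a and Zmat3. These genes were picked after their values were seen. A low level in this table is therefore given as a level only, and not as the absence of a transcript.

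Cdkn2a codes for 2 unrelated proteins, and nearly all of its counts were assigned to the transcript of p19Arf. Each protein has a first exon of its own, and the shared second exon is read in different frames. p19Arf acts on p53 through Mdm2, whereas p16Ink4a inhibits Cdk4 and Cdk6 and so acts on the retinoblastoma protein. The coding part of each first exon is shown because it is the stretch that separates the transcripts. The sequences come from GENCODE M21 on GRCm38 and lie on the minus strand, with the start codon in capitals.
NM_009877 (p19Arf), chr4:89294334-89294523: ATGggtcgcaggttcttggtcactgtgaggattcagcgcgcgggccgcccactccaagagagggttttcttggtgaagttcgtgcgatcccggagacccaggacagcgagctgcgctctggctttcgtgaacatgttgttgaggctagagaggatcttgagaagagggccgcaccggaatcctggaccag
NM_001040654 (p16Ink4a), chr4:89281986-89282111: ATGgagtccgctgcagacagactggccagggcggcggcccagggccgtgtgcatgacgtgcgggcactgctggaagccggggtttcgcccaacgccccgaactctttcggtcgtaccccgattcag
The p19Arf exon holds 190 coding bases, 1 more than a multiple of 3, and the p16Ink4a exon 126, a multiple of 3. Both join the same exon, which opens with gtgatgatgatgggcaacgttcacgtagca, so that it is read in another frame in each. The predicted proteins have 169 and 168 residues.

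The p19Arf transcript held 92.0%, 95.8% and 99.9% of the gene's counts in control tumors 1 to 3, against 92.6%, 98.3% and 99.4% under SS. In CPM it stood at 29.8, 44.0 and 41.1 in control tumors 1 to 3, against 37.9, 40.8 and 42.5 under SS. The groups overlapped, with the lowest and the highest value both in the control group. The p16Ink4a transcript stood at 2.55, 1.92 and 0.041 CPM in control tumors 1 to 3, against 3.05, 0.714 and 0.253 CPM under SS. It was low in all 6 tumors and near or under the level of 3 counts in control tumor 3 and SS tumor 3. In edgeR's quasi-likelihood test the log2 fold change of SS over control was 0.08 ± 0.18 (SE) for p19Arf and -0.14 ± 1.34 for p16Ink4a, with Benjamini-Hochberg adjusted p-values of 0.979 and 0.996. Both rows together, Cdkn2a stood at 32.1, 45.9 and 41.1 CPM in control tumors 1 to 3, against 40.9, 41.6 and 42.8 CPM under SS. The SS values lay close together inside the control range, with a log2 fold change of 0.07 ± 0.15 (SE) and an edgeR adjusted p of 0.945.

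**Figure D2:**
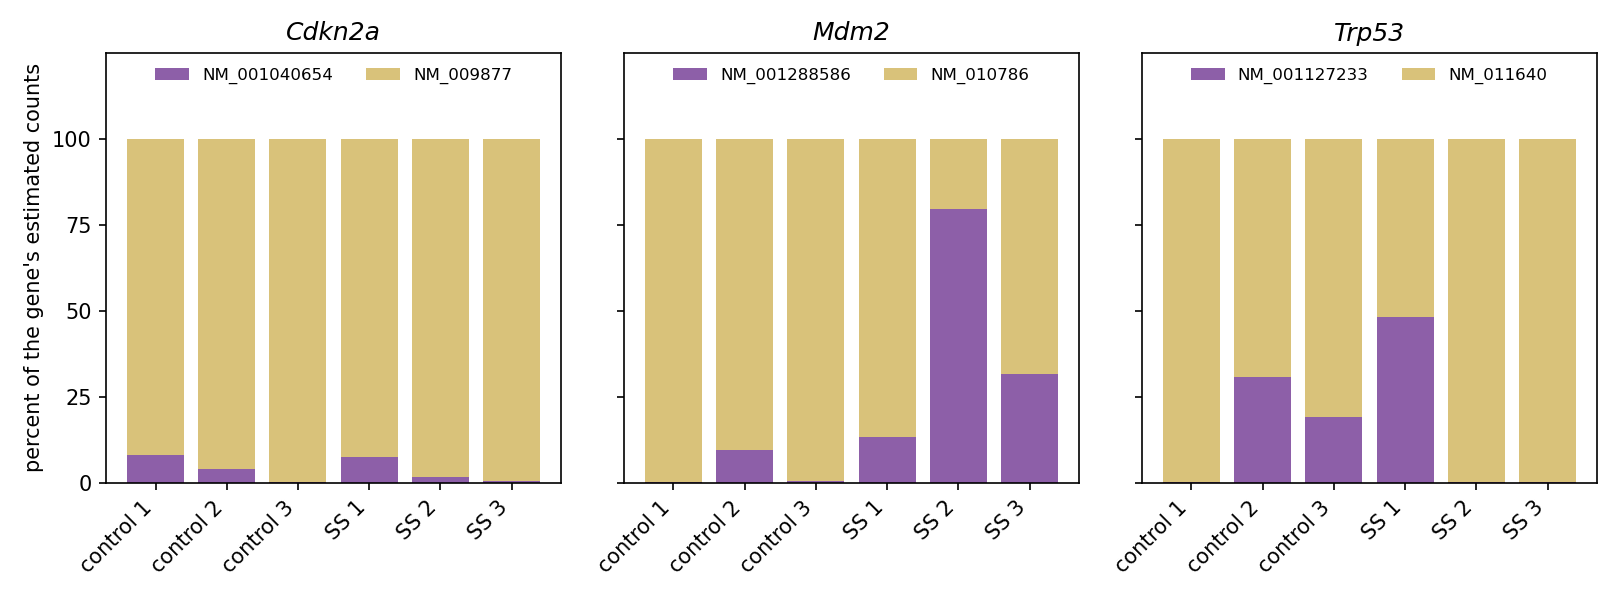
Percent of each gene's estimated counts assigned to each RefSeq transcript of Cdkn2a, Mdm2 and Trp53, 1 bar per tumor. NM_009877 (p19Arf) takes 92.0% to 99.9% of Cdkn2a, while the Mdm2 and Trp53 splits differ widely between tumors.

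No difference between SS and control tumors passed the test for any of the 10 genes. In edgeR's quasi-likelihood test of 3 SS against 3 control tumors, 0 of the 10 passed a Benjamini-Hochberg adjusted p of 0.05, where 0% of the 10902 genes tested passed. At an unadjusted p under 0.05 the count was 0 of 10, against 693 of all genes tested (6.36%). DESeq2 called 35 genes in the whole table at an adjusted p under 0.05, and no member was among them. It gave no adjusted p for members with low counts, Trp53, Cdkn1a and Mdm4 among them, so these could not be called. The groups were separate, with every SS tumor above or every SS tumor below the controls, for 0 of 10 members, against 6.51% of all genes with SS higher and 6.4% with SS lower. Of the 10 members 7 had a log2 fold change above 0 and 3 below it, with a median of 0.07, while the median of all genes tested was -0.001. Nothing in the labels ties the tumors to batches, and these p-values measure the spread between the 6 tumors only.

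**Figure D3:**
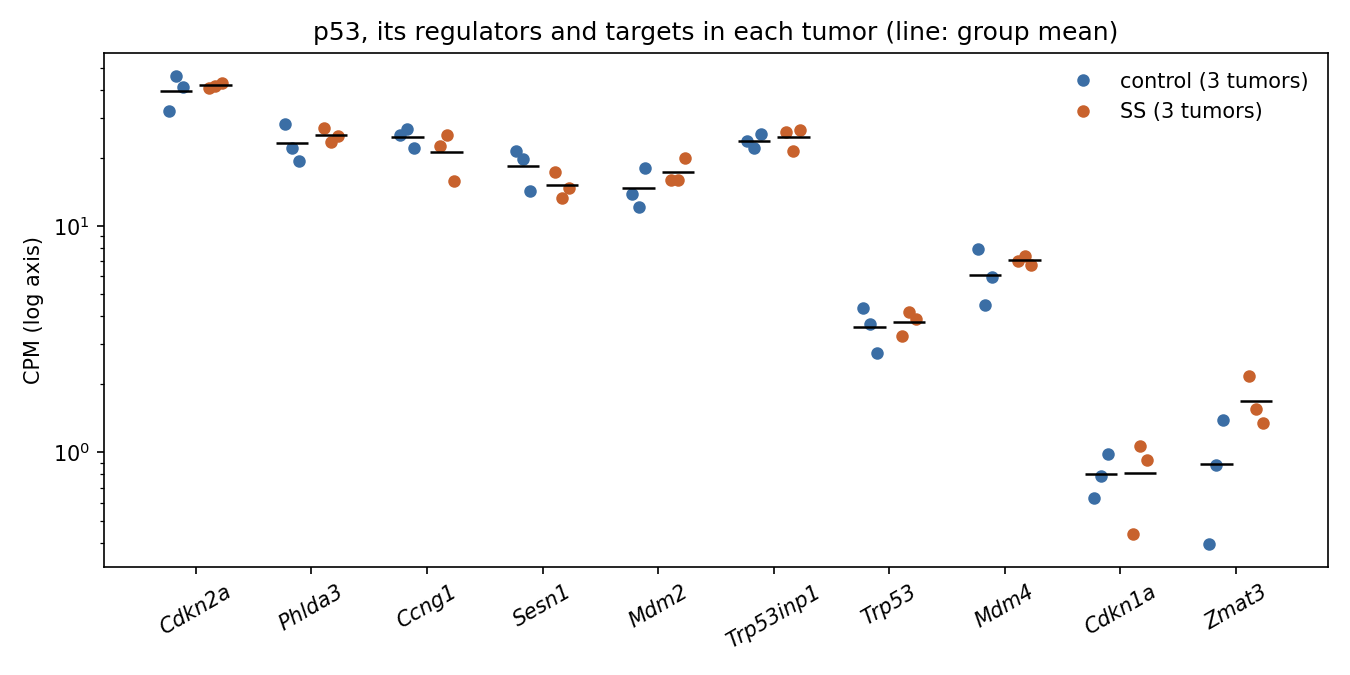
CPM of the 10 genes in each tumor on a log axis, with control tumors in blue, SS tumors in orange and a line at each group mean. The groups overlap for every gene, and Zmat3, from 0.395 to 2.18 CPM, has the widest spread.

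Trp53 stood at 4.35, 3.69 and 2.75 CPM in control tumors 1 to 3, against 3.27, 4.17 and 3.89 CPM under SS. The SS values lay inside the control range. The log2 fold change was 0.07 ± 0.33 (SE), with an edgeR adjusted p of 0.972 and p = 0.7 in an exact two-sided permutation test, whose smallest possible p with 3 against 3 tumors is 0.1. The gene (chr11:69580359-69591874, plus strand) had 2 transcript rows. NM_001127233 took 0.108%, 30.9% and 19.1% of its counts in control tumors 1 to 3, against 48.3%, 0.258% and 0.164% under SS. That share was near 0 in 3 tumors, 1 control and 2 SS, and the rows rested on 35 to 75 counts of the gene per tumor.

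Neither Mdm2 nor Mdm4 passed the test. Mdm2 stood at 13.8, 12.1 and 18.1 CPM in control tumors 1 to 3, against 16.0, 16.0 and 20.03 CPM under SS. Control tumor 3 lay above SS tumors 1 and 2, so the groups overlapped. The fold change was 0.24 ± 0.21 (SE) on the log2 scale, with an adjusted p of 0.890 and an exact permutation p of 0.3. Mdm4 stood at 7.90, 4.47 and 5.95 CPM in control tumors 1 to 3, against 7.04, 7.39 and 6.76 CPM under SS. The SS tumors lay close together inside a wider control range, with a log2 fold change of 0.21 ± 0.28 (SE) and an edgeR adjusted p of 0.923. Its 5 rows split differently in every tumor, with NM_001302803 taking 25.0% to 66.4% and NM_001302801 19.6% to 72.8% of the gene. NM_001302802 took at most 15.3%, NM_001302804 at most 23.8% and the noncoding NR_126506 at most 31.1%, and these 3 rows did not reach the low-count filter.

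One transcript row of Mdm2 had separate groups, the 1 of 13 member transcripts tested that did. Over all 15132 transcripts tested 6.05% were separate with SS higher and 6.49% with SS lower. NM_001288586 stood at 0, 1.13 and 0.082 CPM in control tumors 1 to 3, against 2.11, 12.7 and 6.32 CPM under SS. All 3 SS tumors lay above all 3 controls, and the 0 in control tumor 1 was 0.267 estimated counts before rounding. It took 0.153%, 9.43% and 0.473% of the gene's counts in control tumors 1 to 3, against 13.3%, 79.6% and 31.7% under SS. The fitted log2 fold change was 4.05 ± 1.36 (SE) with an unadjusted p of 0.022, and it was the 1 of 13 member transcripts tested that passed 0.05 unadjusted, where 5.58% of the 15132 transcripts tested did. Its Benjamini-Hochberg adjusted p in edgeR's test was 0.855 and its exact permutation p 0.1, the smallest the design allows. Across all transcripts 0% passed the adjusted threshold (0, with 845 at an unadjusted p under 0.05), and DESeq2 called 128, in which this row had an adjusted p of 0.119.

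The other Mdm2 row, NM_010786, stood at 13.9, 10.99 and 18.0 CPM in control tumors 1 to 3, against 13.9, 3.22 and 13.7 CPM under SS. It was lowest in SS tumor 2, the tumor in which NM_001288586 was highest, and its log2 fold change was -0.47 ± 0.53 (SE). Without SS tumor 2 that value was -0.055, and without SS tumor 1 it was -0.75. Both rows have the same start and end (chr10:117688875-117710759, minus strand). Counts of a gene with several rows were estimates that share reads between transcripts, and the error of that split is not in the table. With 1 tumor left out the log2 fold change of NM_001288586 ranged from 3.32 without SS tumor 2 (unadjusted p 0.074) to 6.89 without control tumor 2 (0.0024). The unadjusted p was 0.059 without control tumor 3 and 0.116 with limma-voom and sample weights, and under 0.05 in every other fit, with the replicate number as a block included (4.97, p 0.0044).

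Cdkn1a stood at 0.632, 0.786 and 0.985 CPM in control tumors 1 to 3, against 0.435, 1.07 and 0.930 CPM under SS. These were 8, 16 and 24 counts in the control tumors and 6, 9 and 11 counts in the SS tumors. SS tumor 1 was lowest and SS tumor 2 highest, and the control values lay between them. The log2 fold change was -0.009 ± 0.55 (SE), with an adjusted p of 0.997 and a 95% interval from -1.09 to 1.07, an interval that holds a change of 1 on the log2 scale in either direction. Its 2 rows were split 31.8% (NM_001111099) to 68.2% (NM_007669) in 5 of the 6 tumors, and in SS tumor 2 NM_007669 took 100%.

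Zmat3 had the largest fold change of the 10 and the fewest counts beside Cdkn1a. It stood at 0.395, 0.885 and 1.40 CPM in control tumors 1 to 3, against 2.18, 1.55 and 1.35 CPM under SS, from 5 to 34 counts per tumor. SS tumors 1 and 2 lay above all controls and SS tumor 3 just below control tumor 3. The log2 fold change was 0.90 ± 0.58 (SE), with an adjusted p of 0.847 and an exact permutation p of 0.2. Its highest value was 5.51 times its lowest, the widest spread of the members, against 2.46 times for Cdkn1a and 1.24 to 1.77 times for the other 8.

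None of the targets with more counts passed the test either. Ccng1 (NM_009831), Sesn1 (NM_001013370), Phlda3 (NM_013750) and, above, Zmat3 (NM_009517) had 1 transcript row each. Ccng1, the gene of cyclin G1, which feeds back on p53 through Mdm2, stood at 25.1, 26.9 and 22.1 CPM in control tumors 1 to 3, against 22.6, 25.3 and 15.8 CPM under SS. SS tumor 3 was lowest and the other SS tumors lay within the control range, with a log2 fold change of -0.22 ± 0.20 (SE). Sesn1, which codes for the stress protein sestrin 1, an inhibitor of mTORC1 signaling, stood at 21.5, 19.8 and 14.2 CPM in control tumors 1 to 3, against 17.4, 13.4 and 14.8 CPM under SS. Control tumor 3 lay among the SS tumors, and the log2 fold change was -0.28 ± 0.21 (SE). Adjusted p-values in edgeR's test were 0.895 for Ccng1 and 0.869 for Sesn1.

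Phlda3 stood at 28.1, 22.2 and 19.4 CPM in control tumors 1 to 3, against 27.1, 23.5 and 25.01 CPM under SS. All SS values fell inside the control range, with a log2 fold change of 0.12 ± 0.18 (SE) and an edgeR adjusted p of 0.930. Trp53inp1, whose product is a stress protein that promotes p53 phosphorylation and autophagy, stood at 23.8, 22.2 and 25.4 CPM in control tumors 1 to 3, against 26.0, 21.5 and 26.7 CPM under SS. It had the narrowest spread of the members, the SS group reached both below and above the controls, and its log2 fold change was 0.06 ± 0.15 (SE). Of its 2 rows NM_001199105 took 23.1% to 57.0% of the counts and NM_021897 the rest. No tumor was high or low throughout: control tumor 1 was highest for 4 members, control tumor 2 and SS tumor 3 for 2 each, SS tumors 1 and 2 for 1 each, and control tumor 3 for 0.

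**Figure D4:**
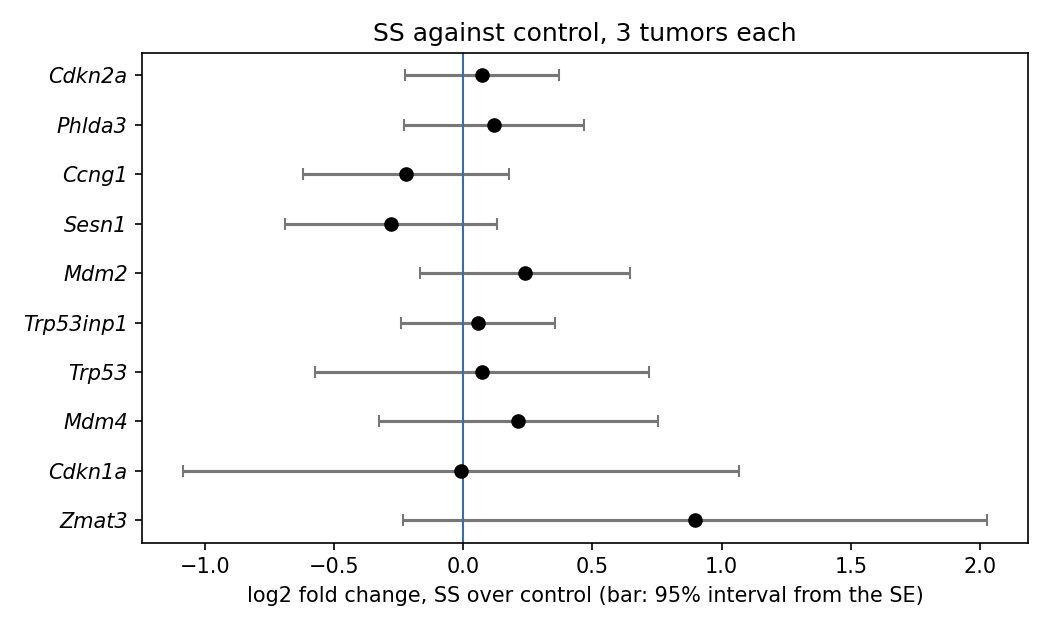
Fitted log2 fold change of SS over control for the 10 genes, with bars for the 95% interval from the SE (3 tumors per group). Every bar crosses 0, and the bars of Cdkn1a, from -1.09 to 1.07, and Zmat3, from -0.23 to 2.03, are the widest.

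The p53 response element is a pair of 10-base copies of a loose consensus with a spacer of up to 13 bases. Its standard consensus was searched on both strands in promoter windows of 300 bases, 250 before to 50 after each start, from RefSeq on GRCm38.p6. Windows were found for 8 of the 10 members (12 windows), with no entry matched for Zmat3 and Trp53inp1. A whole element with at most 1 mismatch was present in 2 of the 12 windows (16.7%), against 0.627% of 32851 windows of all promoters, and with at most 3 mismatches in 5 of 12 (41.7%), against 15.6%. The matches of Cdkn1a and Ccng1 are shown because they had the fewest mismatches, which ranked before the length of the spacer. Both copies are in capitals and the spacer is in lower case.
Cdkn1a, 0 mismatches, in chr17:29090729-29091028, plus strand: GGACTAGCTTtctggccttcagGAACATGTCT
Ccng1, 1 mismatch, in chr11:40755237-40755536, minus strand: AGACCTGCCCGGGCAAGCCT
They begin at position -73 and position -195 from the start of their window's transcript. For Cdkn1a this is the upstream start, of NM_001111099, which took at most 31.8% of the gene's counts. That share was the same in 5 of the 6 tumors, from 6 to 24 counts of the gene. Use of the upstream start was therefore not measured. The window of NM_007669 (chr17:29093519-29093818) held no match. Of these genes Cdkn1a lay at percentile 9.24 and Ccng1 at percentile 56.8 in the tumors. A match describes letters and not binding, which was not measured.

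The wider list of p53 targets lay on both sides of 0. Of 42 further targets 37 had rows and 29 were tested, of which 13 had a log2 fold change above 0 and 16 below, with a median of -0.04. None passed the adjusted threshold in edgeR's test, and 4 passed 0.05 unadjusted, 1 with SS higher and 3 with SS lower, which is 13.8% against 6.36% of all genes. No row under the symbols Gdf15, Fas, Tnfrsf10b, Eda2r or Siva1 was analysed here.

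Among the 8 tested targets of arrest and feedback, 3 passed 0.05 unadjusted, where 6.36% of all genes tested did, and the median log2 fold change was -0.14. Plk2, a polo-like kinase that p53 induces, stood at 195, 108 and 133 CPM in control tumors 1 to 3, against 71.8, 90.0 and 91.2 CPM under SS. All SS tumors lay below all controls, with a log2 fold change of -0.79 ± 0.22 (SE), an edgeR adjusted p of 0.771 and 0.055 in DESeq2. Without control tumor 1, the highest, the log2 fold change of Plk2 was -0.51. Gadd45a, a growth-arrest gene induced by DNA damage, stood at 44.1, 50.9 and 90.0 CPM in control tumors 1 to 3, against 30.8, 41.0 and 44.6 CPM under SS. SS tumor 3 lay just above control tumor 1, and the log2 fold change was -0.67 ± 0.28 (SE). Without control tumor 3, the highest, it was -0.29 with an unadjusted p of 0.178, and the unadjusted p also rose above 0.05 with any 1 of the SS tumors left out, with quantile normalization (0.144), in limma-voom (0.063) and with the muscle score (0.063). Ptpn14, a phosphatase that restrains Yap, stood at 19.8, 16.1 and 18.3 CPM in control tumors 1 to 3, against 22.4, 24.2 and 23.3 CPM under SS. It was the target with separate groups and SS higher, with a log2 fold change of 0.37 ± 0.15 (SE) and an edgeR adjusted p of 0.771, as for Gadd45a. The unadjusted p of Ptpn14, 0.043, rose to 0.069 in DESeq2, 0.074 with the replicate number as a block, 0.057 with a filter of 1 CPM in all tumors, and 0.062 to 0.129 with any 1 tumor but control tumor 1 left out. Plk3, a related kinase, had a log2 fold change of -0.24 ± 0.13 (SE) with overlapping groups, and -0.33 without control tumor 2, with an unadjusted p of 0.037.

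Among the 9 tested apoptosis targets the median log2 fold change was 0.001, and 1 passed 0.05 unadjusted, where 6.36% of all genes tested did. Tnfrsf1a, the receptor of tumor necrosis factor, stood at 11.4, 11.4 and 11.6 CPM in control tumors 1 to 3, against 8.49, 5.48 and 7.69 CPM under SS. The groups were separate with SS lower, at a log2 fold change of -0.66 ± 0.22 (SE) and an edgeR adjusted p of 0.771. Bbc3, which codes for the cell-death protein Puma, had a log2 fold change of 0.64 ± 0.40 (SE), and Dram1, which links p53 to autophagy, one of -0.71 ± 0.56, both with overlapping groups. Without control tumor 1 Dram1 was at -0.40, without SS tumor 2 at -0.41 and in limma-voom at -0.43, while Bbc3 was at 0.92 without SS tumor 3, with an unadjusted p of 0.040. Aen, an apoptosis-enhancing nuclease, had separate groups with SS lower and a log2 fold change of -0.66 ± 0.35 (SE), which was -0.41 without control tumor 1, with an unadjusted p of 0.306. Pmaip1, which codes for Noxa, and Pidd1 did not reach the low-count filter, at no more than 0.435 and 0.596 CPM.

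Among the 12 tested targets of repair and metabolism 0 passed 0.05 unadjusted, and the median log2 fold change was -0.05. Ddb2, a sensor of ultraviolet damage, had the largest difference, 1.51 ± 0.91 (SE) on the log2 scale, from 0.158, 0.147 and 0.985 CPM in control tumors 1 to 3, against 1.16, 2.27 and 0.507 CPM under SS. Control tumors 1 and 2 were near or under the level of 3 counts, and SS tumor 3 lay below control tumor 3. With 1 tumor left out the log2 fold change of Ddb2 ranged from 0.90 without SS tumor 2 to 3.02 without control tumor 3, with unadjusted p-values of 0.427 and 0.020. Pltp, Dcxr and Ephx1 had log2 fold changes of 0.69 ± 0.40, -0.53 ± 0.39 and 0.24 ± 0.23 (SE), with overlapping groups. Pltp was at 0.36 without control tumor 2, 1.13 without control tumor 1 (unadjusted p 0.017) and 1.02 in limma-voom (0.031). Ephx1 was at 0.13 without control tumor 1, 0.36 without control tumor 2 and 0.075 in libraries thinned to the smallest, in which Dcxr was at -0.84. Xpc, Ercc5 and Tigar did not reach the low-count filter.

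**Figure D5:**
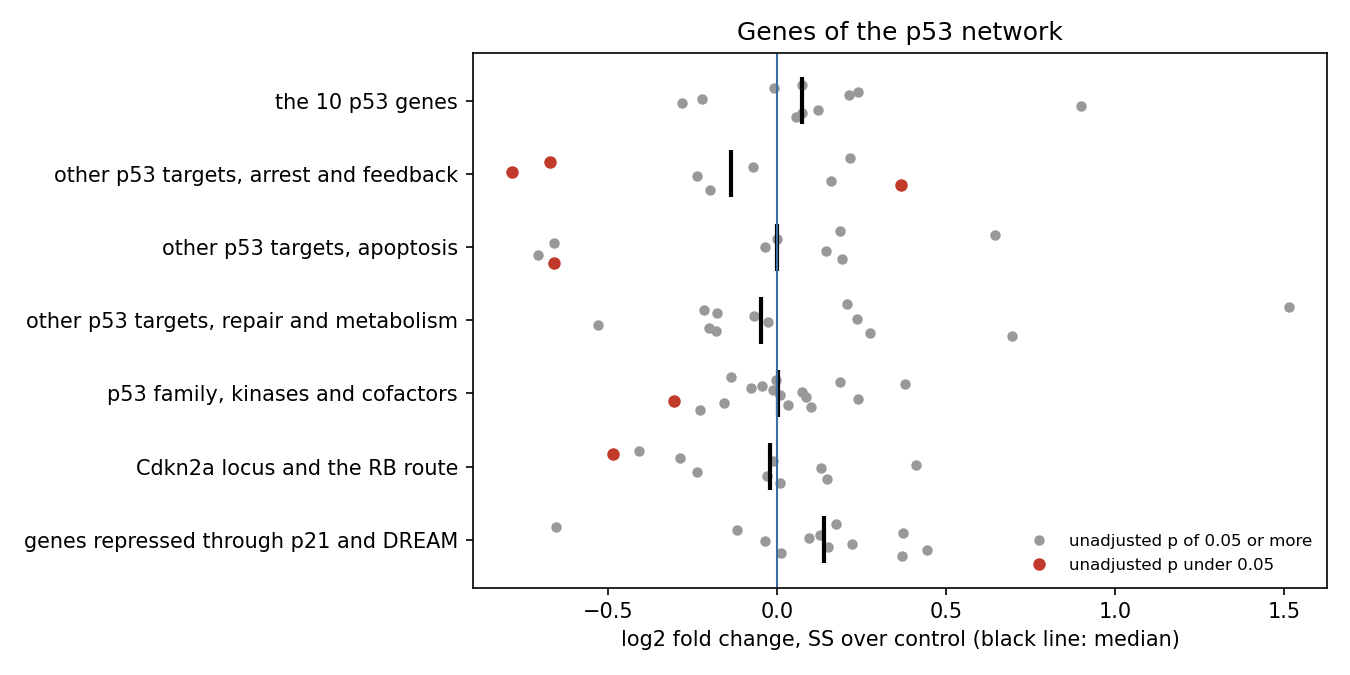
Fitted log2 fold change of SS over control for each tested gene of the 10 members and of 6 lists of the p53 network, with a black line at each list's median. Red points, with an unadjusted p under 0.05, include Plk2 at -0.79, Gadd45a at -0.67 and Ptpn14 at 0.37, and no list lies wholly on one side of 0.

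The partners of p53 and the neighbours of Cdkn2a were also measured. Of 16 tested genes of the p53 family, its kinases and cofactors, 8 had a log2 fold change above 0 and 8 below, with a median of 0.003. Npm1, the nucleolar protein nucleophosmin, which binds p19Arf, stood at 208, 240.5 and 247 CPM in control tumors 1 to 3, against 199, 181 and 183 CPM under SS. The groups were separate with SS lower, at -0.30 ± 0.10 (SE) on the log2 scale and an edgeR adjusted p of 0.771, and its reads may be shared with pseudogenes. Trp53inp2 also had separate groups with SS lower, at -0.23 ± 0.19 (SE), or -0.15 without control tumor 1 and with an unadjusted p of 0.039 in quantile normalization, whereas the kinase Atm and the ribosomal protein gene Rpl5 had overlapping groups. The p53 relatives Trp63 and Trp73 did not reach the low-count filter, at no more than 0.474 and 1.66 CPM.

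At the Cdkn2a locus Mtap, the neighbouring gene of methionine salvage, stood at 30.6, 30.1 and 26.8 CPM in control tumors 1 to 3, against 23.7, 22.8 and 16.1 CPM under SS. The SS tumors lay below all controls, with a log2 fold change of -0.49 ± 0.18 (SE) and an edgeR adjusted p of 0.771. Cdkn2b, which codes for p15Ink4b and lies beside Cdkn2a, stood between 4.17 and 7.22 CPM with overlapping groups. Cdk6, a target of the Ink4 inhibitors, had a log2 fold change of 0.41 ± 0.18 (SE), and Cdkn2c, another Ink4 gene, one of -0.29 ± 0.21, both with overlapping groups. Cdkn2c was at -0.12 without control tumor 1 and -0.19 without SS tumor 3. The unadjusted p of Cdk6, 0.054, was 0.042 in DESeq2, 0.043 with the filter of 1 CPM, 0.024 with the leukocyte score, 0.045 in thinned libraries and 0.0032 without SS tumor 2, where its log2 fold change was 0.58. Of the 10 tested genes of this list 1 passed 0.05 unadjusted, where 6.36% of all genes tested did, with a list median of -0.02.

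p53 lowers cell-cycle genes through p21 and the DREAM repressor complex. Of 12 tested genes of this kind 9 had a log2 fold change above 0 and 3 below, with a median of 0.14, and 0 passed 0.05 unadjusted. Cdk1, the mitotic kinase, stood at 10.6, 14.9 and 6.36 CPM in control tumors 1 to 3, against 7.26, 6.44 and 6.51 CPM under SS. The SS tumors lay near the lowest control, with a log2 fold change of -0.65 ± 0.32 (SE). Without control tumor 2 the value for Cdk1 was -0.33, with an unadjusted p of 0.329, and without control tumor 3 it was -0.92, with 0.0093. Kif23, Ccnb2 and Mki67, which act in or mark dividing cells, had log2 fold changes of 0.37 ± 0.25, 0.44 ± 0.47 and 0.37 ± 0.42 (SE). Without control tumor 2, where Kif23, Ccnb2 and Mki67 were highest among the controls, they were 0.74, 1.035 and 0.89, with unadjusted p-values of 0.0010, 0.0497 and 0.060. Without control tumor 1 they were 0.20, 0.15 and 0.17, and without control tumor 3 they were 0.23, 0.30 and 0.18. Birc5 and Aurka did not reach the low-count filter, and no row under the symbol Cdc25c was analysed here.

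Over the 6 tumors the genes most like Trp53 in log2 CPM were Smc5 (Pearson r = 0.990), Fto (0.988) and Cyb5a (0.985), and 106 tested genes had an r above 0.9. The genes most like Cdkn1a were Pdcd5 (0.990), Sbno2 (0.990) and Tiam2 (0.989), with 93 genes above 0.9. These are descriptions over 6 tumors that share their scaling, and with so many genes at this likeness the order holds little.

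Values of marker genes of other cells stand beside these comparisons. Itgax, a marker of dendritic cells and some macrophages, stood at 66.9, 49.4 and 50.9 CPM in control tumors 1 to 3, against 173, 131 and 89.6 CPM under SS. All SS tumors lay above all controls, at a log2 fold change of 1.24 ± 0.24 (SE) and an edgeR adjusted p of 0.679, while Ptprc, the marker of all leukocytes, lay between 41.4 and 64.2 CPM with overlapping groups. Adgre1 at 0.50 ± 0.24 (SE) and Cd3e at -0.82 ± 0.75 on the log2 scale also had overlapping groups. Summed over the 10 of 12 leukocyte markers with a row, the level was 631 to 756 CPM in control and 687 to 886 CPM in SS tumors. Of the 10 tumor cell markers 3 had a log2 fold change above 0 and 7 below, with a median of -0.07. Over all genes tested 6.51% were separate with SS higher and 6.4% with SS lower, and 1 of the 10 markers had separate groups. This was Krt18, an epithelial keratin, at -0.50 ± 0.12 (SE) on the log2 scale and an edgeR adjusted p of 0.760. Cldn4 at -1.01 ± 0.56, Epcam at 2.201 ± 1.25 and Cdh1 at 0.41 ± 0.44 had overlapping groups. In the other marker lists no gene passed 0.05 unadjusted or had separate groups. The median log2 fold change was 0.20 over 4 tested adipocyte markers, 0.28 over 4 endothelial, -0.29 over 5 fibroblast, 0.83 over 5 muscle markers and -0.22 over the 3 receptors. The log2 fold changes of the adipocyte genes ran from -0.73 (Plin1) to 0.28 (Lipe), with Fabp4 and Pparg between, and those of the endothelial genes from -0.17 (Kdr) to 0.48 (Tek), with Cdh5 and Tie1 between. The 4 fibroblast genes with the smallest unadjusted p ran from -0.65 (Pdgfra) to -0.10 (Col1a1), with Pdgfrb and Col1a2 between, and the 4 such muscle genes from 0.75 (Myh4) to 0.97 (Acta1), with Ckm and Tnnt3 between. No row under the symbols Cd8a, Ly6g, Retn or Emcn was analysed here. The part of these cells in the values of Plk2, Tnfrsf1a and Ptpn14 was not tested beyond the fits with a leukocyte, adipocyte or muscle score, in which these 3 genes kept their direction. The log2 fold change of Ptpn14 was 0.38, 0.35 and 0.37 in these fits, in that order, close to the value without a score, with unadjusted p-values of 0.059, 0.058 and 0.063.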

How the data were processed

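Polyadenylated RNA of 3 control and 3 SS tumors was sequenced from stranded libraries in pairs of 75 bases. The deposited table holds the authors' estimated counts, 1 row per RefSeq transcript and not normalized, with coordinates on mm10 (GRCm38) and gene symbols, after removing entries with very low or no expression. The lowest sum of a row over the 6 tumors was 10. The submitters' processing notes name CASAVA 1.8.1, Bowtie2 2.2.5 and STAR 2.5.3a without their roles, and the counting tool is not given in the sources used here. How reads were divided among transcripts of a gene, and whether strand was used, could therefore not be checked.

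Counts were summed by symbol, after 21 symbols that had been turned into dates were restored, and rounded to whole numbers. edgeR 4.0.16 in R 4.3.3 scaled them by the trimmed mean of M-values (factors 0.98 to 1.03) and filtered low genes with its default minimum count of 10. It tested 10902 genes and, separately, 15132 transcripts by the quasi-likelihood F test, two-sided, with Benjamini-Hochberg adjustment over all features tested and a threshold of 0.05. The common coefficient of biological variation was 0.323. SEs were obtained from each log2 fold change and its F statistic. Single genes were also compared by an exact permutation test of log2 CPM. DESeq2 1.42.0 and limma 3.58.1 were alternatives, with other scalings, filters, depths and left-out tumors. Totals of 8468914 to 24441522 counts set the precision, and intervals rest on the spread between tumors.

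Lengths and Cdkn2a exons came from GENCODE M21, and 94.3% of rows had a length. The members and gene lists were chosen with earlier results of these data known. All members and their transcripts are named, and from each other list up to 4 tested genes with the smallest unadjusted p and those without a row. The genes most like Trp53 and Cdkn1a were the 3 with the highest Pearson correlation. Low-count genes beyond that, and Vim, were named after their values were seen.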

Additional observations from a re-analysis of the deposited data

How the results depend on the processing

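Across the alternative scalings, filters, depths and tests, the counts of genes and of transcripts passing the adjusted threshold stayed at 0 except in DESeq2, which called 35 genes and 128 transcripts. The cause was not tested. At an unadjusted p under 0.05 the count of genes ranged from 520 to 877. The median log2 fold change of the 10 members ranged from 0.050 to 0.13 with 1 tumor left out. No member passed an adjusted p of 0.05 in any fit that gave it one, and the smallest value of any was 0.747. DESeq2 gave none for Trp53, Cdkn1a and Mdm4, among others. The tumors share replicate numbers across the groups, but deviations of same-numbered tumors correlated at 0.116, 0.021 and 0.077, not all over 0.1, and control tumor 2 went best with SS tumor 3, so the numbers were not taken as pairs. With the number as a replicate block 0 genes and 0 transcripts passed the adjusted threshold, and 643 and 769 passed unadjusted. With the block, p16Ink4a (NM_001040654) turned to 0.16 and NM_021897 of Trp53inp1 to -0.062.

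With 1 tumor left out the log2 fold change also moved by over 1.5 times, without turning, for Mdm2 (0.12 to 0.42), Mdm4 (0.031 to 0.44), Ccng1 (-0.36 to -0.049), Sesn1 (-0.44 to -0.16), Phlda3 (0.0071 to 0.28) and Zmat3 (0.57 to 1.37), and no unadjusted p of a member fell under 0.05. Of 24 other list genes followed, 15 moved by over 1.5 times with 1 tumor left out. NM_001302803 of Mdm4 ranged from -0.99 to -0.16.

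Directions that turned belonged to differences smaller than their SE. Cdkn1a turned to 0.068 with an adipocyte score and 0.11 with quantile normalization and a t statistic, and ranged from -0.25 to 0.31 with 1 tumor left out. In the same way Trp53 ranged from -0.088 to 0.23, Cdkn2a from -0.058 to 0.19 and Trp53inp1 from -0.0042 to 0.15. NM_001040654 turned to 0.068 with a leukocyte score, 0.57 in limma-voom, 0.30 with quantile normalization and 0.14 in thinned libraries, and ranged from -1.63 to 0.46 with 1 tumor left out. NM_021897 turned to -0.033 with an adipocyte score, -0.085 with a muscle score and -0.077 with quantile normalization (leave-one-out -0.39 to 0.22). NM_001199105 of Trp53inp1 turned to -0.13 with a leukocyte score (-0.18 to 0.41), and NM_011640 of Trp53 to -0.053 in thinned libraries (-0.13 to 0.43). With 1 tumor left out NM_001302801 of Mdm4 ranged from -0.50 to 0.72, NM_009877 of Cdkn2a from -0.077 to 0.19 and NM_013750 of Phlda3 from -0.0034 to 0.27. The fits with marker scores were chosen after seeing the data. Marker genes, Itgax and Krt18 among them, were not followed in the other fits. Of the remaining list genes at an unadjusted p under 0.05, Tnfrsf1a stayed under it in every fit. Plk2 did so in all but quantile normalization (0.061). Gadd45a, Ptpn14, Npm1 and Mtap rose above it with 1 tumor left out. Gadd45a also did so in limma-voom (0.063), quantile normalization (0.144) and with the muscle score (0.063). Mtap also did so in quantile normalization (0.0505) and with the leukocyte score (0.056), and Ptpn14 in the fits given with it. Cdkn1a and Zmat3 had the fewest counts, 5 to 34 per tumor, and the error of splitting counts among transcripts could not be measured.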
